A study of Homo sapiens with 6 samples.

Results

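Genes for the making, folding and breakdown of proteins were compared between cancer cells from the brain that had stayed dormant (GFP+CV+) and those that were proliferating (GFP+CV-). The genes were taken by symbol from the 1161 genes of the deposited table: ribosomal proteins (RPL or RPS), translation initiation and elongation factors (EIF, EEF), proteasome subunits and their partners (PSM), chaperonin subunits (CCT), heat shock proteins (HSP) and J-domain proteins (DNAJ). The rule found 31 genes, of which 8 were ribosomal proteins, 9 were EIF, 6 PSM, 1 CCT, 4 HSP and 3 DNAJ genes, and none was an EEF gene. All 8 ribosomal protein genes encode proteins of the large subunit, and no small-subunit gene (RPS) was listed. The symbol pattern does not take *RPL36AL*, a further gene for a large-subunit protein in the table, which was lower too (log2 fold change -0.475) and is counted among the other genes. Of the 31, 30 are protein-coding genes and 1, *PSMA3-AS1*, is a long noncoding RNA that carries a proteasome symbol because it lies opposite the proteasome gene *PSMA3*.

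MDA-MB-231 is a human triple negative breast cancer cell line. Cells of this line that carry green fluorescent protein (GFP) were labelled with CellVue Claret (CV), a membrane dye that is lost through cell division, and injected into the internal carotid artery of female C.B-17 SCID mice aged 6 to 8 weeks. At day 28 the cells that kept the dye (GFP+CV+, dormant) and those that had lost it (GFP+CV-, proliferating) were sorted from the dissociated brains, so both populations carry GFP, were labelled and came from the same hosts. Each population gave 3 libraries, from pools of 10, 10 and 9 mice for replicates 1, 2 and 3, and no library stands for a single animal. Full-length cDNA was made with the Smart-seq2 protocol.

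Ribosomes are built from ribosomal RNA and a large family of ribosomal proteins, and initiation factors bring them to the start codon of an mRNA. Initiation is the main point of control, through phosphorylation of the factor eIF2 and through proteins that hold back the cap-binding factor eIF4E. New proteins are folded by chaperones such as the heat shock proteins, their J-domain partners and the chaperonin ring, and proteins marked with ubiquitin are degraded by the proteasome. Growing cells make many ribosomes, and cells that leave the cell cycle are known to lower protein synthesis.

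Typically, mRNAs of the translation machinery begin with a C followed by a run of C and T (the TOP motif). Sequence at the transcription start is therefore shown for the ribosomal protein genes. It is also shown for 2 heat shock genes whose promoter sequence matched a heat shock motif. RefSeq promoters on GRCh38.p14 (250 bases before to 50 after an annotated start) were matched by symbol for 23 of the 31 genes, and *EIF2AK1*, *EIF3CL*, *EIF3H*, *PSMD4*, *RPL7*, *RPL8* and *RPL23A* were among those not matched. A C followed by at least 7 bases that are each C or T, beginning between 10 bases before and 15 bases after an annotated start on the gene's strand, was found for all 4 matched *RPL* genes, for 3 of the 19 other matched genes (*EIF3I*, *HSPH1* and *PSME1*) and for 11.5% of all 27305 genes with a promoter. In a list of cytosolic ribosomal protein genes it was found for 51 of 63. The position limits of this search were set after the sequences were seen. In these windows from GRCh38.p14 capitals mark the run.
RPL9, chr4:39458898-39458942, minus strand: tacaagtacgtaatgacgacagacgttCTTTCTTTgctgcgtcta
RPL15, chr3:23917112-23917156, plus strand: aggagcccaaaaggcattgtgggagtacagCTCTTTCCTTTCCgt
RPL29, chr3:51995871-51995915, minus strand: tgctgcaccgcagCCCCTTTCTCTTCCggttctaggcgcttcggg
RPL41, chr12:56116613-56116657, plus strand: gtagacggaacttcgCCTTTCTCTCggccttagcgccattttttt
The heat shock motif, searched as GAANNTTC or TTCNNGAA (each reads the same on both strands) over the 300 bases, was found for *HSP90AA1* (3 matches, of which the first 2 overlap) and *HSPA1L* (1 match), that is 2 of the 8 matched chaperone genes, against 16.2% of all genes. Capitals mark the matches.
HSP90AA1, chr14:102087093-102087144, minus strand: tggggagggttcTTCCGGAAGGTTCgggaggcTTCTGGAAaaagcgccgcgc
HSPA1L, chr6:31815425-31815456, minus strand: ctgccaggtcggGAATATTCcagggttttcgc
These are matches of letters in an annotated window and say nothing of the factors bound there.

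Every gene in the deposited table had been called by the authors between the same 6 libraries, so a difference was a condition for being in it, and the values below describe the 31 genes and are not independent tests of them. Normalized read counts are counts divided by a size factor of each library. Log2 fold changes are dormant over proliferating, with standard errors (SE) and adjusted p-values from edgeR's quasi-likelihood test over the 1161 genes. In this test 31 of the 31 genes had an adjusted p-value under 0.05, against a background of 99.7% of the table, and in 31 of the 31 every dormant library lay on one side of all proliferating libraries, as in 99.2% of the table. Neither share is particular to these genes. Over an assumed family of 20000 genes, with unlisted genes taken to have larger p-values, 0 of the 31 and 3 of the 1161 genes passed edgeR's test, and the adjusted p-values of the 31 lay between 0.0554 and 0.2. All 31 had an unadjusted p-value under 0.05.

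The direction was mostly downward. Of the 31 genes, 25 (80.6%) were lower in dormant cells, against a background of 50.4% of the table, and 6 were higher, against 49.6%. A change of at least 2-fold was seen in 5 of the 31 (*HSPA1L*, *PSMA3-AS1*, *EIF2B5*, *HSPH1* and *EIF4EBP2*), against 66.5% of the table. The median log2 fold change of the 31 genes was -0.50, against -0.33 for the table and 0.62 for the 1130 other genes. No gene of the table lies near 0: the 585 lower genes end at -0.28 and the 576 higher genes begin at 0.51. The median of the table therefore falls at the edge of this gap and is not a typical change. The 25 lower genes had a median of -0.53, so that the typical one fell by 30.5%. Other abundant genes of the table were mostly lower as well. Of 339 other genes with a mean normalized read count in the range of the lower genes other than *HSPA1L* (4614 to 87980), 234 were lower (69%) with a median of -0.63 among those lower, and in the range of the *RPL* genes 61 of 68 others were lower (89.7%). The plot of normalized read counts by library shows these values gene by gene.

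**Figure D1:**
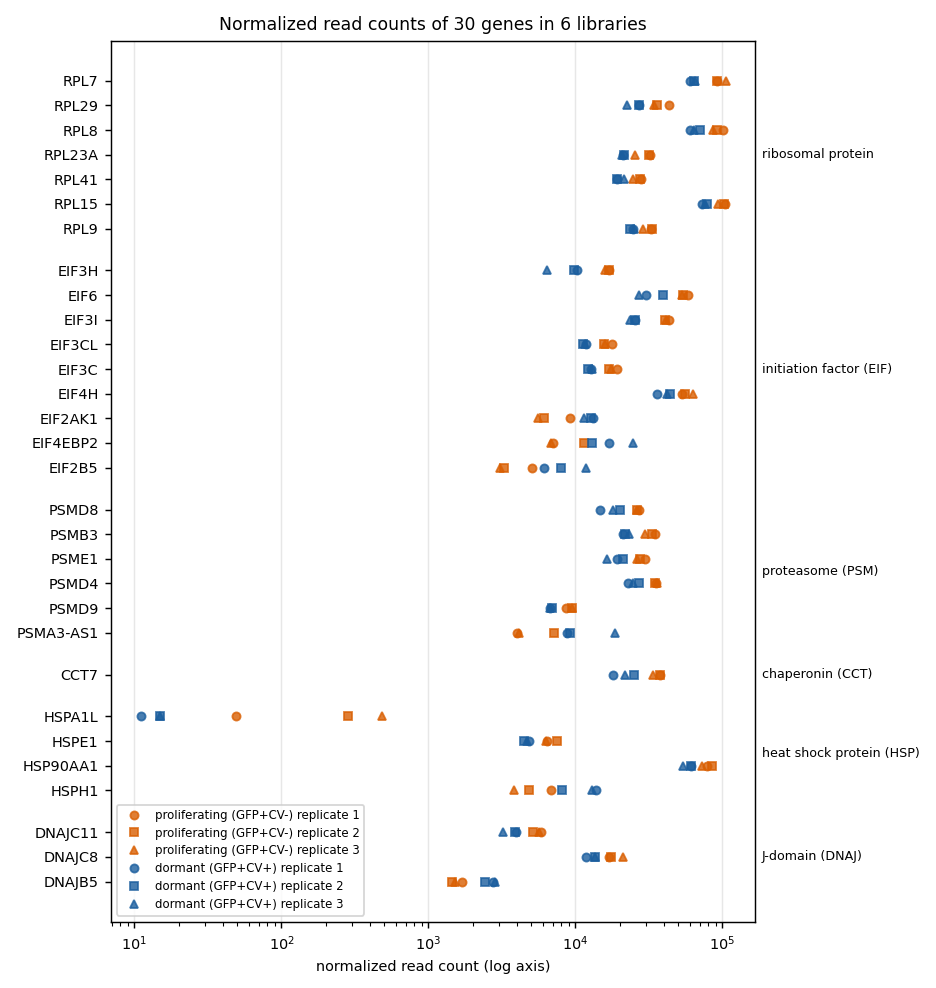
Normalized read count (x axis, log scale) of 30 of the 31 genes (y axis, grouped by family) in the 3 proliferating (orange) and 3 dormant (blue) libraries, each point being 1 library and its shape the replicate number. In 24 genes all blue points lie left of all orange points, and in 6 genes (*EIF2AK1*, *EIF4EBP2*, *EIF2B5*, *PSMA3-AS1*, *HSPH1* and *DNAJB5*) they lie right of them.

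The sizes depended on how libraries were scaled, which touches every fold change given here. With libraries scaled to the totals of the table, the median of all 1161 genes moved from -0.33 to -0.04 and that of the 31 genes from -0.50 to -0.22. With median ratios over the table, these medians were -0.91 and -1.08. In both, 25 of the 31 genes were lower and 6 higher, so no direction turned, but the calls by edgeR (adjusted p under 0.05) were 7 lower and 6 higher with totals, against 81.7% of the table called, and 25 lower and 0 higher with median ratios, against 80.2%. The 7 genes that stayed lower with totals were *HSPA1L*, *EIF3H*, *EIF6*, *EIF3I*, *CCT7*, *RPL7* and *PSMB3*. Ratios of genes within a library do not depend on the scaling and are given where they bear on a family.

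**Figure D2:**
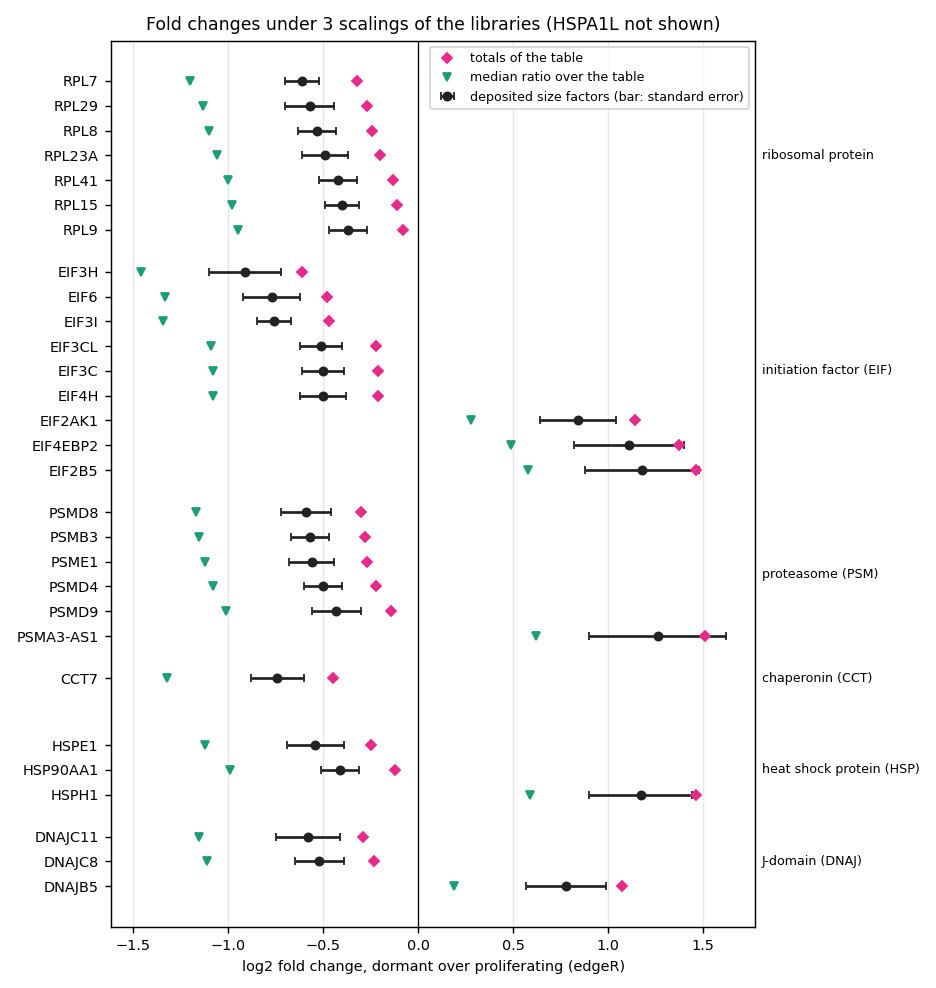
Log2 fold change from edgeR (x axis, dormant over proliferating) of the same genes (y axis, *HSPA1L* left out) with the deposited size factors (black, bar: standard error), the totals of the table (pink) and median ratios over the table (green). No gene crosses 0 between scalings, while the *RPL* genes shown run from -0.61 to -0.37 in black and from -0.32 to -0.08 in pink.

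Markers of other cell types moved with the populations. Summed normalized read counts of the 6 fibroblast and mural cell genes in the table, of a list of 13, were 4573 to 7769 in proliferating and 48566 to 78931 in dormant libraries, and all 6 passed edgeR's test as higher. Of 10 astrocyte genes, 3 were in the table, all higher, with sums of 580 to 1339 and 3984 to 7215. Of 12 microglia and macrophage genes, 3 were in the table, of which *ITGB2* and *CD74* were lower and *CD4* was higher, with sums of 51095 to 106568 in proliferating and 34731 to 45211 in dormant libraries. No endothelial, oligodendrocyte or neuron marker of the lists was in the table. Genes outside the lists that are known from these cell types were in it and went both ways. Of these, *EMCN* of endothelial cells (log2 fold change 4.628) and *CLDN11* of oligodendrocytes (4.391) were higher, and *GRIN2B* (-10.604) and *SNAP91* (-7.147) of neurons were lower. They were chosen after their values were seen, and further ones are not named. Of 10 genes listed for the MDA-MB-231 line, the 4 in the table (*KRT8*, *KRT18*, *CAV1* and *LGALS1*) were all lower, with log2 fold changes of -0.77 to -0.51, and their summed counts fell from between 353961 and 392515 to between 200250 and 258185. The other 6 were not analysed here. None of the 12 fibroblast and mural, astrocyte, or microglia and macrophage markers from the lists was at 0 in all libraries of a population. In proliferating libraries, however, *APOE* was at 3, 0 and 0, *DCN* at 0, 2 and 3, and *LUM* at 4, 2 and 7. The part of these shifts in the results on the 31 genes was not tested, and less RNA per cell cannot be told apart from a lower share of such cells in bulk libraries.

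All 8 ribosomal protein genes of the large subunit were lower in dormant cells. *RPL9* fell by 22.6% and *RPL7*, at the other end, fell by 34.4%, and the median of the log2 fold changes was -0.46. The ribosomal proteins are structural parts of the ribosome. *RPL7* (ENSG00000147604.13), a gene of chromosome 8, had normalized read counts of 92435, 91991 and 105896 in proliferating and 60608, 64338 and 65493 in dormant libraries. The highest dormant library lay well below the lowest proliferating library, and the log2 fold change was -0.61 (SE 0.09, adjusted p = 0.00322, edgeR). *RPL8* had 101207, 92280 and 86062 against 60637, 70020 and 63598, which is -0.53 (SE 0.10). *RPL15* was the most abundant of the 31 genes by normalized count, with 104866, 102727 and 92950 in proliferating and 72066, 78631 and 76617 in dormant libraries (-0.40, SE 0.09). Here too the groups did not overlap, and the gap between them was larger than the spread within either.

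*RPL29* had 43107, 35833 and 34394 in proliferating and 27035, 27122 and 22378 in dormant libraries, with a log2 fold change of -0.57 (SE 0.13). Proliferating replicate 1 was the highest library of *RPL29*. *RPL23A*, with 31936, 31649 and 25269 against 20932, 21516 and 20823, fell by 0.49 on the log2 scale (SE 0.12). *RPL41*, which encodes the smallest ribosomal protein, had 27876, 27322 and 24511 against 19101, 19314 and 21307 (-0.42, SE 0.10). *RPL9* changed least of the 31 genes, with 32886, 33123 and 28900 in proliferating and 24815, 23592 and 25069 in dormant libraries (-0.37, SE 0.10). The pair of replicate 3 gave the smallest differences for these last genes, -0.28 for *RPL23A*, -0.20 for *RPL41* and -0.21 for *RPL9*.

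The 8 genes moved nearly in proportion to each other. Their summed normalized read counts were 503679, 477392 and 458805 in proliferating and 331430, 353177 and 342906 in dormant libraries. Within this sum the share of *RPL15* was 20.3% to 21.5% in proliferating and 21.7% to 22.3% in dormant libraries, just above the proliferating ones. For *RPL7*, *RPL8*, *RPL9*, *RPL23A*, *RPL29* and *RPL41* the shares overlapped. The count of *RPL7* was 278% to 366% of that of *RPL9* in proliferating and 244% to 273% in dormant libraries, a narrow gap. These genes changed most and least of the 8, so the ratio restates their fold changes and is no further observation. Relative to *RPL8* the count of *RPL7* overlapped, at 91.3% to 123% and 91.9% to 103%. Relative to *RPL15* it did not, at 88.1% to 114% and 81.8% to 85.5%. Against the 4 genes of the cancer cell line the populations overlapped: the ribosomal protein sum was 128%, 135% and 121% of their sum in proliferating and 128%, 141% and 171% in dormant libraries. Both sums hold only lower genes of a table selected for a difference, so an overlap was likely from the start and no cause can be read from it. With the libraries scaled to the totals of the table, the log2 fold changes of the 8 genes ran from -0.32 to -0.08, and 1 of the 8, *RPL7*, passed the threshold.

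Replicates of these genes agreed closely. The median coefficient of variation of the 8 genes was 7.83% over the proliferating and 4.23% over the dormant libraries, against 9.18% and 7.95% for the lower ones among other genes in the same range of abundance. Ribosomal protein genes have many processed pseudogenes, and 241 GENCODE genes are named as pseudogenes of these 8, with 92 for *RPL23A* and 61 for *RPL7*. Of these, *RPL9P9* (log2 fold change -0.463), *RPL7P9* (-0.369) and *RPL23AP82* (-1.392) are in the table themselves and were lower as well. The counts of 7 of the 8 genes were fractional in all 6 libraries, against 16.6% of the table, and how reads shared with pseudogenes or with mouse ribosomal protein genes were divided is not given in the sources used here.

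Of the 9 initiation factor genes, 6 were lower in dormant cells, with log2 fold changes of -0.91 to -0.50, and 3 were higher. On the fixed lists, 7 of them are initiation factors, of which 6 were lower and *EIF2B5* was higher, and *EIF2AK1* and *EIF4EBP2*, both higher, are listed under translation control. The eIF3 complex is a scaffold on the small ribosomal subunit. *EIF3I* (ENSG00000084623.11, chr1:32221077-32245397, plus strand) had 43371, 40792 and 41165 in proliferating and 25327, 25283 and 23385 in dormant libraries. Replicates within each population differed little, with coefficients of variation of 3.34% and 4.5%, and *EIF3I* had the smallest p-value of the 31 genes (log2 fold change -0.76, SE 0.09, adjusted p = 0.00322, edgeR). Of its exonic bases 9.33% are also exonic on the other strand, and the protocol does not mark the strand. *EIF3H*, a gene of chromosome 8, had 16829, 17032 and 15823 against 10318, 9723 and 6405 (-0.91, SE 0.19). Dormant replicate 3 was lowest here, and without it the log2 fold change of *EIF3H* was -0.72.

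*EIF3C* had 19223, 16869 and 17337 in proliferating and 12774, 12081 and 12876 in dormant libraries (-0.50, SE 0.11), and *EIF3CL* had 17608, 15648 and 16001 against 11824, 11172 and 11572 (-0.51, SE 0.11). These are near-identical copies on chromosome 16, at 28688558 to 28735727 on the plus and 28379579 to 28403841 on the minus strand. Of the 75-base words in annotated transcripts of *EIF3CL*, 95.88% also occur in transcripts of *EIF3C*, and the ratio of their counts was 89.9% to 92.8% in every library. Their reads can hardly be told apart, and the pair is better read as 1 measurement. Counted so, 24 of 30 genes were lower. Within libraries the count of *EIF3C* was 44.3%, 41.4% and 42.1% of that of *EIF3I* in proliferating and 50.4%, 47.8% and 55.1% in dormant libraries, without overlap. *EIF3C*, read with its copy, was thus lowered less than *EIF3I*. The ratio of *EIF3H* to *EIF3I* overlapped between populations, at 38.4% to 41.8% in proliferating and 27.4% to 40.7% in dormant libraries.

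*EIF6* encodes a factor that helps to make the large ribosomal subunit and keeps it from joining the small one too early. It had 58641, 53767 and 52731 in proliferating and 30397, 39412 and 26928 in dormant libraries (-0.77, SE 0.15). *EIF4H*, which stimulates the RNA helicase that unwinds the mRNA leader, had 53459, 55616 and 63027 against 35757, 44275 and 41880 (-0.50, SE 0.12). In both, dormant replicate 2 was the highest dormant library and still lay below every proliferating library. The ratio of *EIF6* to *EIF4H* overlapped between populations, at 83.7% to 110% and 64.3% to 89%. Another gene of the table, *AL121753.1* (log2 fold change -0.807), overlaps the locus of *EIF6* on the same strand, and whether their reads are shared was not tested.

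The 3 higher genes differ in role. *EIF2AK1* encodes HRI, a kinase that phosphorylates eIF2 under haem shortage and other stress. Its normalized read counts were 9135, 6143 and 5543 in proliferating and 13200, 12682 and 11494 in dormant libraries, with a log2 fold change of 0.84 (SE 0.20, adjusted p = 0.00693, edgeR). *EIF4EBP2* encodes a protein that binds eIF4E and represses cap-dependent initiation, and it had 7032, 11443 and 6865 against 16915, 12934 and 24732 (1.11, SE 0.29). The populations were nearest in the pair of replicate 2, which gave a log2 ratio of 0.18 for *EIF4EBP2* against 1.27 and 1.85 in the others. *EIF2B5* encodes the catalytic subunit of eIF2B, the exchange factor that recharges eIF2 and is the target of inhibition by phosphorylated eIF2, so that in role it promotes initiation. It had 5079, 3288 and 3076 in proliferating and 6090, 7967 and 11887 in dormant libraries (1.18, SE 0.30), and its log2 ratio was 0.26 in the pair of replicate 1. For *EIF4EBP2* and *EIF2B5* the spread within dormant libraries was wide, with coefficients of variation of 33% and 34.2%, and without dormant replicate 3 their log2 fold changes were 0.82 and 0.88.

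Ratios within a library give the size of these differences free of the scaling. The count of *EIF2AK1* was 47.5%, 36.4% and 32% of that of *EIF3C* in proliferating and 103%, 105% and 89.3% in dormant libraries. For *EIF4EBP2* over *EIF4H* the ratios were 13.2%, 20.6% and 10.9% against 47.3%, 29.2% and 59.1%, and for *EIF2B5* over *EIF3C* 26.4%, 19.5% and 17.7% against 47.7%, 65.9% and 92.3%. Each ratio sets a higher gene over a lower one, the pairs were chosen after their values were seen, and that the populations do not overlap follows from that choice. *EIF2AK1* shares 9.69% of its exonic bases with exons of genes on the other strand, mainly *AIMP2*.

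**Figure D3:**
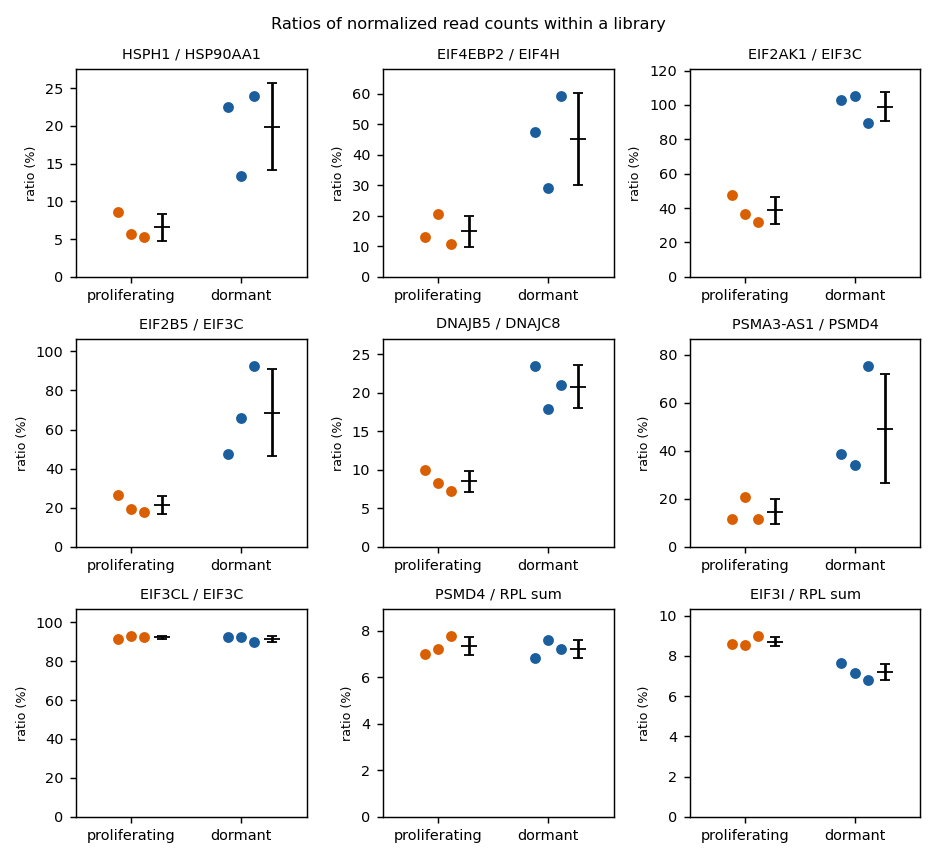
Ratio of normalized read counts of 2 genes, or of a gene to the sum of the 8 *RPL* genes, within each library in percent (y axis, from 0), for proliferating (orange) and dormant (blue) libraries, with the mean and SD of the 3 libraries beside them (black). *EIF3I* over the *RPL* sum does not overlap between populations, nor do the 6 upper ratios, which set a higher gene over a lower one, while *EIF3CL* over *EIF3C* and *PSMD4* over the *RPL* sum do.

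The 5 proteasome subunit and partner genes were all lower in dormant cells. *PSMD9* fell by 25.8% and *PSMD8*, which changed most, fell by 33.7%, and the median of the 5 log2 fold changes was -0.56. *PSMD4* encodes a ubiquitin receptor of the regulatory particle. Its normalized read counts were 35344, 34527 and 35651 in proliferating and 22708, 26886 and 24784 in dormant libraries, a log2 fold change of -0.50 (SE 0.10, adjusted p = 0.00434, edgeR). The proliferating libraries of *PSMD4* differed by a coefficient of variation of 1.65%, the lowest of the 31 genes in that population. *PSMD8*, a subunit of the lid of the regulatory particle, had 27132, 26235 and 26379 against 14597, 20242 and 18071 (-0.59, SE 0.13). *PSMB3*, a structural subunit of the core, had 34966, 32952 and 29562 against 20935, 21687 and 23110 (-0.57, SE 0.10). A gene of the core and genes of the regulatory particle were lower together, and the ratio of *PSMB3* to *PSMD4* overlapped between the populations at 82.9% to 98.9% and 80.7% to 93.2%.

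*PSME1* encodes a subunit of the interferon-inducible proteasome activator. It had 29710, 27586 and 26174 in proliferating and 19091, 21222 and 16308 in dormant libraries (-0.56, SE 0.12). *PSMD9*, a chaperone for assembly of the regulatory particle, had 8573, 9492 and 9413 against 6722, 6907 and 6745 (-0.43, SE 0.13). It had the largest adjusted p-value of the 31 genes, 0.0116, and 0.0476 with the replicate block (edgeR). Another gene of the table, *AC069503.2* (log2 fold change -0.435), overlaps the locus of *PSMD9* on the same strand. Whether their reads are shared was not tested. The ratios of *PSMD8*, *PSME1* and *PSMD9* to *PSMD4* all overlapped between populations, and so did *PSMD4* over the ribosomal protein sum, at 7.02% to 7.77% and 6.85% to 7.61%. *EIF3I* relative to the ribosomal protein sum did not overlap, at 8.54% to 8.97% in proliferating and 6.82% to 7.64% in dormant libraries. The sum of the 5 proteasome genes over that of the 4 cell line genes overlapped too, at 33.6% to 37% and 32.6% to 44.5%. Here as well both sums hold only lower genes of the selected table, so an overlap was likely from the start.

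*PSMA3-AS1* (ENSG00000257621.7, chr14:58265365-58298134, minus strand) had 4022, 7115 and 4157 in proliferating and 8745, 9139 and 18626 in dormant libraries. Dormant replicate 3 lay far above the others, and the log2 fold change was 1.26 (SE 0.36) with all libraries and 0.81 without it. Its exons share 96 bases (1.3%) with exons on the other strand, mainly of *LINC00216*. *PSMA3* itself was not analysed here.

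Chaperone genes went both ways, with 6 of the 8 HSP, DNAJ and CCT genes lower and 2 higher. *HSP90AA1* encodes the stress-inducible form of cytosolic HSP90, which matures kinases and other clients. Its normalized read counts were 78777, 85096 and 72078 in proliferating and 61363, 61533 and 54107 in dormant libraries, with a log2 fold change of -0.41 (SE 0.10, adjusted p = 0.00706, edgeR). With the table's totals as scaling it was -0.12 and did not pass. *CCT7* encodes a subunit of the chaperonin ring that folds actin and tubulin, and had 37758, 37319 and 33455 against 18068, 25039 and 21849 (-0.74, SE 0.14). *CCT7* also fell relative to *HSP90AA1*, from 43.9% to 47.9% of its count in proliferating to 29.4% to 40.7% in dormant libraries, without overlap. Relative to *HSPE1* the populations overlapped, with *CCT7* at 496% to 587% of its count in proliferating and 376% to 559% in dormant libraries.

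*HSPE1*, the small chaperonin of mitochondria, had 6432, 7525 and 6299 in proliferating and 4805, 4483 and 4675 in dormant libraries (-0.54, SE 0.15). Its locus overlaps that of its partner *HSPD1* on the other strand, with which it shares most of the 7.41% of its exonic bases that are also exonic there, and 26 pseudogenes are named after it. *DNAJC8*, a J-domain protein of the nucleus that associates with the splicing machinery, had 16904, 17551 and 21163 against 11755, 13510 and 13499 (-0.52, SE 0.13). *DNAJC11*, a J-domain protein of mitochondria, had 5812, 5171 and 5616 against 3967, 3884 and 3232 (-0.58, SE 0.17), and shares 11.65% of its exonic bases with genes on the other strand, mainly *THAP3*. All 3 genes were without overlap between populations, and none of them passed with the table's totals as scaling.

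*HSPA1L*, an HSP70 family gene known mainly from testis, differed most. It had 49, 285 and 484 normalized read counts in proliferating and 11, 15 and 15 in dormant libraries, from counts of 67, 264 and 596 and of 12, 16 and 11. It was the least abundant of the 31 genes, and proliferating libraries differed among themselves by a coefficient of variation of 80.1%. The log2 fold change was -4.27 (SE 0.96, adjusted p = 0.00591, edgeR), a 19.4-fold reduction, and ran from -4.77 without proliferating replicate 1 to -3.56 without proliferating replicate 3. The gene lies on chromosome 6 (31809619 to 31815283, minus strand) beside close relatives of the HSP70 family, its counts were fractional in 5 of 6 libraries, and reads from those relatives may be included.

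The higher chaperone genes were *HSPH1* and *DNAJB5*. *HSPH1* encodes HSP110, a nucleotide exchange factor for HSP70 that takes part in dissolving protein aggregates. It had 6807, 4821 and 3848 in proliferating and 13788, 8155 and 12930 in dormant libraries, or 2.25-fold higher (log2 fold change 1.17, SE 0.27, adjusted p = 0.00653, edgeR). Relative to *HSP90AA1* its count was 8.64%, 5.67% and 5.34% in proliferating and 22.5%, 13.3% and 23.9% in dormant libraries. *DNAJB5*, a J-domain partner of HSP70, had 1695, 1443 and 1526 against 2754, 2420 and 2840 (0.78, SE 0.21). Its libraries varied little within a population, with coefficients of variation of 8.26% and 8.3%, and its ratio to *DNAJC8* was 7.21% to 10% in proliferating and 17.9% to 23.4% in dormant libraries. Both ratios set a higher gene over a lower one, and that the populations do not overlap in them follows from that choice. Counts of *HSPH1* and *DNAJB5* were whole in all libraries.

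The higher genes varied more between replicates than the lower ones. Their median coefficient of variation was 29% in proliferating and 29.5% in dormant libraries, against 7% and 7.19% for the 25 lower genes. Over all higher genes of the table it was 28.8% and 31.4%, and over all lower genes 15.1% and 16.1%. In 4 of the 6 higher genes dormant replicate 3 was the highest library, and the median log2 ratio of the 6 genes was 0.86, 0.75 and 1.80 in the pairs of replicates 1, 2 and 3. Among 413 other genes with a mean normalized read count in the range of these 6 (2113 to 13320), 43.8% were lower and the median of those higher was 1.38, against 1.14 for the 6 genes. The plot of fold change against abundance shows where the 31 genes lie in the table.

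**Figure D4:**
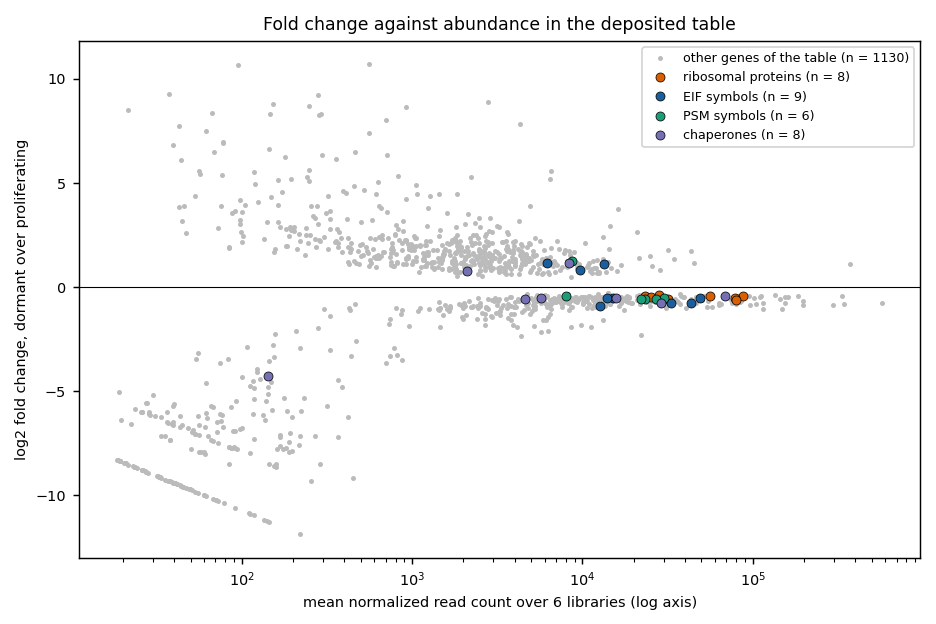
Log2 fold change (y axis, dormant over proliferating) against the mean normalized read count over 6 libraries (x axis, log scale) for the 31 genes (coloured by family) and the 1130 other genes of the table (grey). The *RPL* genes lie between -0.61 and -0.37 at means of 23240 to 87980, where 61 of 68 other genes are also below 0, and *HSPA1L* is the only one of the 31 far below, at -4.27.

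Levels between genes can be compared only per length. Per kilobase of annotated exon in proliferating cells, mean normalized read counts were highest for *RPL8* (43160), *RPL7* (35840) and *EIF6* (33630), and lowest for *HSPA1L* (98.67), *DNAJB5* (263.9) and *DNAJC11* (454.2). The 6 higher genes, at 263.9 to 1264 per kilobase, all lay below every ribosomal protein gene, the lowest of which was *RPL9* with 6407. Annotated exon length counts every known transcript and may exceed what these cells use.

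Few other genes of the same pathways were in the table. Of 79 cytosolic ribosomal protein genes on a fixed list 8 were in it, of 44 initiation factors 7, of 50 proteasome genes 6 and of 67 cytosolic chaperones and cofactors 9. Unlisted genes were not analysed here, and whether they differed cannot be read from the table. Among genes outside the 31, the proteasome subunit *SEM1* was lower, with a log2 fold change of -0.51 (SE 0.13), and so was *PFDN5* of the prefoldin complex (-0.44, SE 0.10). The arginine tRNA synthetase gene *RARS* (-0.68, SE 0.18), the mitochondrial protease *CLPP* (-0.67, SE 0.18) and the ribosome biogenesis genes *NOB1* (-0.93, SE 0.25) and *POLR1C* (-0.55, SE 0.15) were lower as well. Ribosome biogenesis genes outside the fixed list went both ways, in a choice made after their values were seen. Of these, *NOP53* (log2 fold change 1.801), *PDCD11* (1.473), *REXO4* (1.371) and *URB1* (1.273) were higher, and *TBL3* (-0.772) and *WDR3* (-0.542) were lower.

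Some genes of protein quality control were higher. *XBP1*, a transcription factor of the unfolded protein response, had 4075, 2337 and 2081 normalized read counts in proliferating and 9673, 9670 and 11445 in dormant libraries (1.86, SE 0.27, adjusted p = 0.00322, edgeR), and *CRELD2* of the endoplasmic reticulum had 3115, 2713 and 1873 against 5118, 5265 and 10022 (1.41, SE 0.33). These were the 2 genes of 36 on the endoplasmic reticulum list that were in the table, and both were higher. *PELO*, which rescues stalled ribosomes, rose by a log2 fold change of 0.92 (SE 0.16), and the HSP70 cofactor *BAG1* by 1.42 (SE 0.28). The small heat shock protein *CRYAB*, which is also expressed by glial cells, had 3, 0 and 26 in proliferating and 432, 564 and 464 in dormant libraries. All the genes named so far in this paragraph passed edgeR's test over the table, as 99.7% of its genes did, and all were without overlap between the populations. Endoplasmic reticulum genes outside the fixed list went both ways, in a choice made after their values were seen. Of these, *HERPUD1* (log2 fold change -0.749), *AGR2* (-1.116) and *PRDX4* (-0.93) were lower, and *TMX4* (2.644) was higher. The fixed list of 42 ubiquitin genes, mainly conjugating enzymes and cullins, had no gene in the table. Ubiquitin ligase genes outside that list were in the table and went both ways. Among them *UBE3A* (log2 fold change 1.596), *FBXW7* (2.673) and *MDM2* (1.25) were higher, and *MUL1* (-1.413), *TRIM32* (-1.122) and *RNF25* (-0.904) were lower. These were chosen after their values were seen, and further ones are not named. Of 10 cell-cycle genes on a fixed list *MCM3* was in the table (-0.40, SE 0.10). Cell-cycle and DNA replication genes outside that list were in the table and went both ways. Among them *PTTG1* (log2 fold change -0.847), *TYMS* (-0.665) and *CENPX* (-0.548) were lower, and *CDC16* (1.304), *NPAT* (1.391) and *WAPL* (1.382) were higher. They too were chosen after their values were seen, and further ones are not named.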

How the data were processed

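Libraries of sorted cells were made by the authors with Smart-seq2 and Nextera XT. Per the labels and the study's methods, reads were checked with FastQC 0.11.8, trimmed with Cutadapt, aligned with STAR 2.7 to joined human (GRCh38.p12) and mouse (GRCm38.p6) assemblies and counted with Rsubread, multi-mapping reads included, and mouse reads were discarded. The deposited estimated counts are not normalized and partly fractional (43.24% to 49.61% of values per library), and were rounded here. The deposited normalized values are signal values: rounded counts divided by a DESeq2 size factor of each library (0.7239 to 1.3796). Deposited columns of the authors' fold changes, statistics and p-values were not used. Per library, the 1161 genes held 7978657 to 17928784 estimated counts, a part of its depth. The full depth is not known. The 31 genes held 6.668% to 8.086% of these sums, with at least 11 counts in every library.

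The main test was edgeR's two-sided quasi-likelihood test (edgeR 4.0.16, R 4.3.3) with population as the only term and the deposited size factors, fitted on all 1161 genes and adjusted by the Benjamini-Hochberg method over them. Alternatives were other scalings, DESeq2 1.42.0, limma 3.58.1, a low-count filter, a family of 20000 genes, and each library left out. The fits were tested on simulated data with a lower dispersion than estimated here and mostly unchanged genes. That cannot show how they behave on a table selected for a difference. Exact permutation of 3 against 3 libraries cannot go below p = 0.1 and was not used. Both populations of a number came from the same pool of mice, so a replicate block was fitted too; over the 1161 genes the deviations of same-numbered libraries had correlations of 0.057, -0.018 and 0.001. P-values measure the spread between these pools. Positions and exon lengths are from GENCODE 44 (GRCh38), matched for all 31 genes, and promoters from RefSeq (GRCh38.p14). Genes that matched the rule were named, and up to 4 others per list, with the largest change. Genes named from outside the lists were chosen after their values were seen. Values of 1 ribosomal protein gene are not reported here singly, but it is included in the counts, medians and sums. The genes, lists and tests were chosen with earlier results of these data known. Tables and plots were made in Python 3.11.15 (pandas 2.3.3, matplotlib 3.10.9).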

Additional observations from a re-analysis of the deposited data

How the results depend on the processing

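No gene changed direction under any of the 18 alternatives run. With each library left out in turn, 31 of 31 genes passed edgeR's test over the table (which 99.7% of the table passed with all libraries, having been selected on them), 25 were lower, and the median log2 fold change was -0.52 to -0.46. DESeq2, limma with pseudocounts of 0.5, 1 and 10, TMM factors and the low-count filter, which removed no gene, also left 31 past the threshold. With the replicate block the count was 31 (largest adjusted p 0.0476, edgeR) and the median -0.51, so the block changed no call among the 31 genes. Over a family of 20000 genes 0 passed, without the block (smallest adjusted p 0.0554) and with it (0 genes, 0.137, an alternative chosen after seeing the data, like the counting of *EIF3C* and *EIF3CL* as 1 gene, which left 30 genes past the threshold and 24 lower). With the totals of the table as scaling 13 passed and the median was -0.22, and with median ratios over the table the median was -1.08 and 25 passed. The cause was not tested. The full depth of the libraries is not known, and the dispersion (0.182, or 0.144 with the block) comes from genes selected for a difference.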
